A study of Mus musculus with 16 samples.

Results

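Collagens are proteins of the extracellular matrix built from long chains, and the genes of the chains are named Col, a type number, the letter a and a chain number. All genes of the deposited table whose symbol has exactly that form were taken as members, which gave 44 of 23355 genes, spread over 15 chromosomes. Of these, 40 passed the filter on low values (10 or more normalized counts in 7 or more libraries) and were tested, while Col6a4, Col6a5, Col6a6 and Col17a1 did not. The tumours modelled diffuse midline glioma, a brain cancer in which histone H3.3 often carries the K27M change, and whole-tumour RNA was sequenced. All 16 mice were untreated C57BL/6 animals with a floxed p53 gene (p53 fl/fl) and the Nestin Tv-a transgene, which places the receptor for RCAS viruses in Nestin-expressing cells. On postnatal day 3 every mouse received RCAS-PDGFA and RCAS-Cre, together with RCAS-H3.3WT in the 9 tumours of the H3.3WT group or RCAS-H3.3K27M in the 7 tumours of the H3.3K27M group. The controls therefore carried the growth factor PDGF-A and the p53 deletion as well, and tumours were taken at endpoint, with no age given. No removal of host cells is described, so RNA of host and tumour cells was read together. In bulk RNA, fewer cells of a type and less RNA per cell cannot be told apart.

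A collagen chain is a long run of repeats in which glycine returns at a fixed spacing, and chains wind around one another before they leave the cell. Fibrillar collagens build the cables of connective tissue, type IV collagens build the sheets of basement membranes, type VI forms beaded filaments, and FACIT collagens sit on fibril surfaces. In the brain, fibrillar collagens are known chiefly from meninges and vessel walls, and type IV collagen from the basement membrane of blood vessels.

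Between 11439144 reads (library 8) and 41730692 reads (library 16) stood behind each library, and every library but library 8 held at least 30377560. Numbers 1 to 9 denote H3.3WT and numbers 10 to 16 H3.3K27M libraries. This assignment comes from the group means in the table header and the sizes of the labelled groups, since the labels do not name the library columns, and all directions below rest on it. The design text of the series counts fewer tumours than the labels. The slope of a library's deviation from the mean of all libraries on log2 exon length was below 0 for 7 of the 9 H3.3WT tumours (median -0.110, lowest -0.306 in library 8) and above 0 for 5 of the 7 H3.3K27M tumours (median 0.132). Tested collagen genes were long, with a median exon length of 7242 bp against 4421 bp over all tested genes. Markers of oligodendrocyte progenitors were high in every library, with a summed level of 164842 to 388013 normalized counts in H3.3WT and of 216906 to 484253 in H3.3K27M tumours.

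The repeat that defines the family was read from the coding sequences of GENCODE M21 transcripts (mm10, the same assembly as GRCm38). Each line below gives 21 codons from the start of the longest run of a glycine codon (GGN, in capitals) followed by 2 other codons. The first 2 lines are fibrillar chains, the next 2 are the type IV chains that lead their class, and the last is the chain with the highest mean level per kb of exon over the 16 libraries.
Col1a1, codons 168 to 188: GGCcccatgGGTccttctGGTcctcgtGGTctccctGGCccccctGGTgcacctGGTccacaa
Col27a1, codons 673 to 693: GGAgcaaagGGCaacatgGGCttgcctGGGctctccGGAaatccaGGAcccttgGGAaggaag
Col4a1, codons 43 to 63: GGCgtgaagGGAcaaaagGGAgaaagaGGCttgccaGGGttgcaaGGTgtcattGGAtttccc
Col4a2, codons 777 to 797: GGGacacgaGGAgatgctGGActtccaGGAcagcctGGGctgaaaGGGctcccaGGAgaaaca
Col16a1, codons 1006 to 1026: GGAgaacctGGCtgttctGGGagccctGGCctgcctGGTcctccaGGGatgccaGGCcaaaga
The lines look alike over this stretch, and the chains differ in how long the pattern runs on. In Col1a1 the longest run held 338 repeats and in Col3a1 344, and Col1a2, Col2a1, the type V chains and the type XI chains fell between 337 and 339. Col27a1 and Col24a1, fibrillar chains of 1845 and 1733 codons, had longest runs of 217 and 216 repeats. Their runs of at least 4 repeats together held 329 and 327 repeats, against 355 in Col1a1. Type IV chains carried their repeats in many pieces: Col4a1 had 22 runs of at least 4 repeats with a longest run of 40, and Col4a2 had 24 with a longest run of 66. Col16a1, a FACIT collagen, had 21 runs, the longest of 52 repeats. In the large type VI chain Col6a3, only 10.1% of codons lay in such runs, against 78.4% in Col4a1.

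The genes of the type IV chains lie head to head in pairs on opposite strands, and the starts of Col4a1 and Col4a2 are 21 bp apart in GENCODE M21, where the ends of the gene models overlap. The windows from 250 bases before to 50 bases after each start (RefSeq, GRCm38.p6) are shown because the levels of both genes moved together across tumours, as given further on. Capitals mark 3 short motifs: CCAAT, known as the CCAAT box, then GGGCGG, known as the GC box, and then TATAAA, known as the TATA box. Each was searched on both strands, so that a match on the other strand appears as its reverse complement.
Col4a1, chr8:11312777-11313076, minus strand: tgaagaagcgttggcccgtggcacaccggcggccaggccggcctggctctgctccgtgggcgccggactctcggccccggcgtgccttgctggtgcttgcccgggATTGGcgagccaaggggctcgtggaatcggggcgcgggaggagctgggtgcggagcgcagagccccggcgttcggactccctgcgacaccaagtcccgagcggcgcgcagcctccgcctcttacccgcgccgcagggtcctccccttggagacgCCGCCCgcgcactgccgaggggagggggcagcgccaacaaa
Col4a2, chr8:11312555-11312854, plus strand: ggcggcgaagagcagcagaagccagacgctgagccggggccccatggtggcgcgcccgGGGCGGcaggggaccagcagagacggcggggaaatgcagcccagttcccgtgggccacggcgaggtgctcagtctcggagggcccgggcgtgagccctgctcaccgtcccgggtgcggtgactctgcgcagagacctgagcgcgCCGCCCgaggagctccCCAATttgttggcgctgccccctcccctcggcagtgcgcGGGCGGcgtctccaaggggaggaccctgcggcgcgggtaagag
Col4a1 held 1 CCAAT and 1 GGGCGG match, Col4a2 held 1 and 3, and neither window held TATAAA. The windows overlap in the genome, so some matches are the same bases read from opposite strands. Of 38 windows of 35 collagen genes in the RefSeq table, 60.53% held GGGCGG, 34.21% held CCAAT and 13.16% held TATAAA. Over all 32851 windows of the table the shares were 35.66%, 37.41% and 13.62%. These are matches of letters and not measured binding sites.

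Per kb of exon, the mean level over all 16 libraries spanned 862-fold between the tested collagen genes. Col16a1 (chr4:130047840-130099283, plus strand), a FACIT chain, led with 2467 normalized counts per kb. It was followed by the vessel basement membrane chain Col4a1 (2369.6), the type XI chain Col11a2 (1770.1), the type IX chain Col9a3 (1628), Col4a2 (1522), Col11a1 (1297), Col18a1 (849.7), which encodes the precursor of endostatin, and the FACIT chain Col20a1 (697). These 8 genes made up 76.7% of the summed mean level per kb. Col1a1 and Col3a1, the main fibrillar chains of skin and scar, averaged 317 and 132 per kb and stood well down the order. Neighbours in the order cannot be ranked against each other: the ranges over libraries overlapped in 43 of 43 neighbouring pairs. The leading gene also differed between tumours, being Col4a1 in 5 libraries, Col16a1 in 4, Col11a2 in 3, Col9a3 in 3 and Col11a1 in 1. With the length of the transcript of longest coding sequence in place of all exons, a setting added after the data were seen, Col16a1, Col4a1 and Col11a2 again led.

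**Figure D1:**
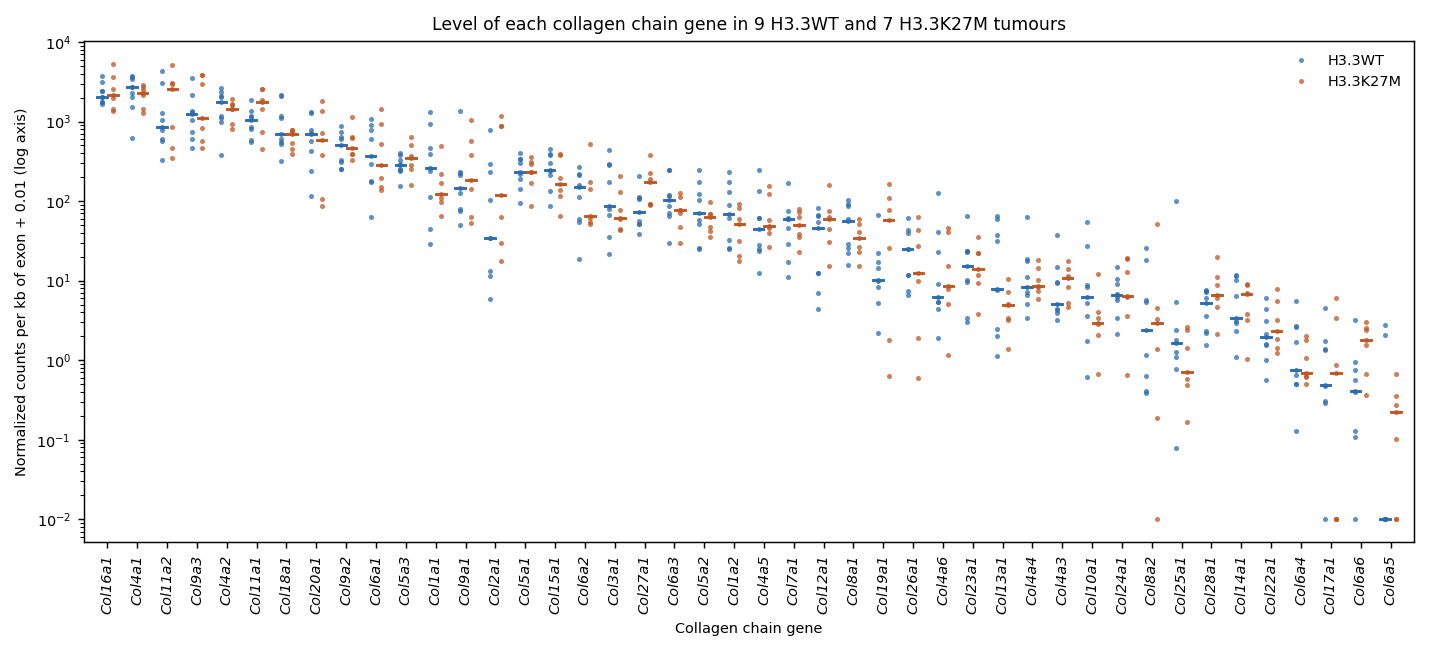
Normalized counts per kb of exon (log axis, 0.01 added so that values of 0 can be drawn) for the 44 collagen chain genes, ordered by mean level. Points are tumours, 9 H3.3WT in blue and 7 H3.3K27M in orange, and short lines are group medians; the colours overlap in all 44 genes, and Col16a1 and Col4a1 lead.

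The 4 members below the filter were read at very low levels. Col6a4, Col6a5 and Col6a6, the additional chains of type VI collagen, reached at most 47.7, 25.6 and 29.6 normalized counts in any library. Col17a1, a transmembrane collagen of skin hemidesmosomes, reached 36.8. No read of Col6a5 was found in 7 H3.3WT and 2 H3.3K27M tumours, where a count of 0 allows up to 3 reads.

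Summed per kb, the collagen genes reached a median of 15730.2 normalized counts per kb in H3.3WT (8711 to 22017) and 19670.5 in H3.3K27M tumours (9908 to 26302.5), and the groups overlapped. FACIT chains took a median of 32.9% of that sum in H3.3WT and 35.9% in H3.3K27M. Fibrillar chains took 24.4% and 31.9%. Type IV chains took 30.0% and 20.96%, multiplexins 8.10% and 4.61%, and type VI chains 5.52% and 2.78%. Each of these shares overlapped between the groups, and type IV spanned 10.3% (library 9) to 40.7% (library 4) within H3.3WT alone. The shares were not tested between groups.

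**Figure D2:**
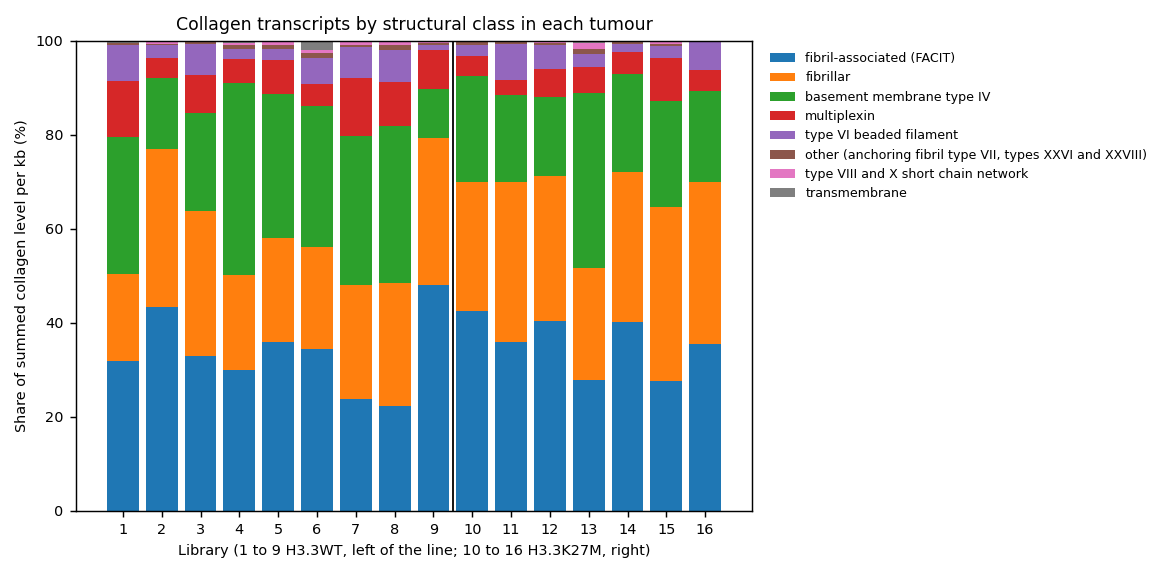
Share of the summed collagen level per kb of exon (%) taken by each structural class, 1 bar per library, H3.3WT left and H3.3K27M right of the line. FACIT, fibrillar and type IV chains fill most of every bar, and type IV takes from 10.3% in library 9 to 40.7% in library 4.

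The comparison of H3.3K27M with H3.3WT tumours found no collagen gene past the threshold. With limma on log2(normalized count + 1), 0 of 40 tested collagen genes had an adjusted p under 0.05, beside 0% of all 15007 tested genes. At an unadjusted p under 0.05, 1 collagen gene (Col27a1) was higher and 0 were lower in H3.3K27M, where 8.7% of all tested genes were higher and 6.61% lower. Of the 40 genes, 20 had a log2 fold change above 0 and 20 below 0, where 50.5% and 49.5% of all tested genes did. Their median was -0.01, beside 0.00 over all tested genes. The groups overlapped in all 44 members, while 0.0333% of all tested genes did not overlap. The quasi-likelihood test of edgeR, run on reads recovered from the values, also called 0 of 40 after adjustment, where it called 0% of all genes, and 5 at an unadjusted p under 0.05: Col19a1 and Col27a1 higher (background 8.09%) and Col10a1, Col13a1 and Col25a1 lower (7.78%). For Col25a1 edgeR gave a log2 fold change of -3.41, where DESeq2 gave -0.57 and limma without library 6 gave -0.48. DESeq2 gave an adjusted p for 35 of the 40 (not for Col8a2, Col10a1, Col22a1, Col25a1 and Col28a1) and called 0 of the 35, where it called 0.78% of the 13843 genes with one. At an unadjusted p under 0.05 it had 6, namely Col11a1, Col19a1 and Col27a1 higher (background 8.85%) and Col10a1, Col13a1 and Col18a1 lower (8.76%). Of 42 collagen genes with an adjusted p in the authors' deposited table, 0 were under 0.05, beside 1.41% of its genes, and the smallest adjusted p in the authors' deposited table was 0.0691, for Col13a1. At an unadjusted p under 0.05 the authors' deposited table had 6 collagen genes. Col11a1, Col19a1 and Col27a1 were higher and Col10a1, Col13a1 and Col18a1 lower in H3.3K27M. The share of all its genes at that p was not computed here, so this count has no background.

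**Figure D3:**
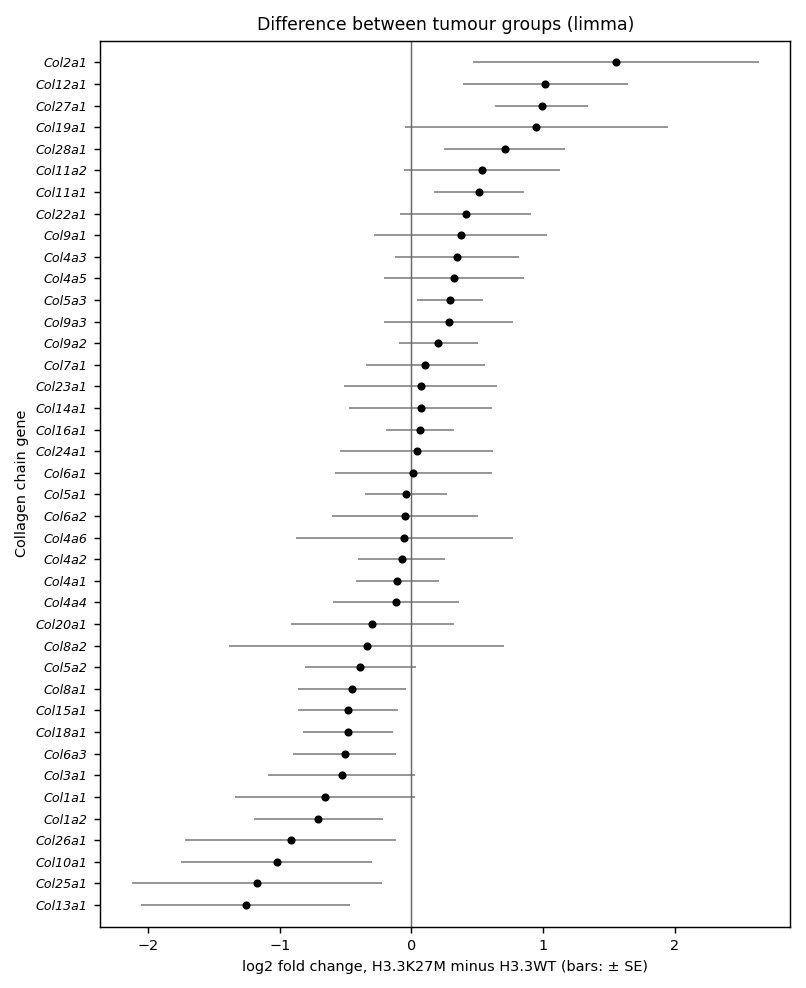
Log2 fold change of normalized count + 1, H3.3K27M minus H3.3WT, for the 40 tested collagen genes, with SE bars from limma. Estimates run from -1.26 (Col13a1) to 1.55 (Col2a1), 20 on either side of 0, and none passed an adjusted p of 0.05.

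Among the 11 fibrillar genes, 6 had a log2 fold change above 0 and 5 below 0 (median 0.04), and 0 passed. Over the alternatives in the closing section, between 5 and 10 of the 11 were above 0. Col27a1 (chr4:63214004-63334991, plus strand), a chain known from cartilage, ranged from 503 to 2691 normalized counts in the 9 H3.3WT tumours (median 942) and from 1168 to 4989 in the 7 H3.3K27M tumours (median 2261). All 7 H3.3K27M tumours lay above the H3.3WT median, and 4 of 9 H3.3WT libraries (2, 3, 4 and 8) lay above the lowest H3.3K27M value, library 2 highest. Its log2 fold change was 0.99 ± 0.35 (SE), adjusted p = 0.261 in limma, with an adjusted p of 0.123 to 0.784 over the alternatives. When the dependence on exon length was removed from every library, it was 0.70 with an unadjusted limma p of 0.0785, and with the pericyte and smooth muscle score as a covariate it was 1.27.

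Col11a1 (chr3:114030540-114220718, plus strand) and Col11a2 (chr17:34039437-34066685, plus strand), chains of type XI collagen, which sets fibril diameter in cartilage, had the highest mean levels per kb of exon among the fibrillar genes. Col11a1 had a median of 13503 normalized counts (range 6998 to 23478) in H3.3WT and of 22185 (range 5758 to 33129) in H3.3K27M tumours, and 5 of 7 H3.3K27M tumours lay above the H3.3WT median while library 10 lay below every H3.3WT value. On the log2 scale the difference was 0.51 ± 0.34 (SE), adjusted p = 0.470 in limma. Col11a2 lay between 2226 and 29645 normalized counts with a median of 5879 in H3.3WT and between 2379.7 and 35619 with a median of 17672 in H3.3K27M. Both groups held tumours at the low and at the high end, with the highest values in libraries 2 (29645) and 3 (21256) of H3.3WT and 11 (35619) and 10 (21016) of H3.3K27M, and the log2 fold change was 0.54 ± 0.59 (SE), adjusted p = 0.686 in limma.

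Col1a1, Col1a2 and Col3a1, chains of the major interstitial collagens I and III, had log2 fold changes below 0. Col1a1 (chr11:94936224-94953042, plus strand) ranged from 192 to 8709 normalized counts in the 9 H3.3WT tumours (median 1733) and from 420.0 to 3249 in the 7 H3.3K27M tumours (median 814). Library 10 was the only H3.3K27M tumour above the H3.3WT median, and the groups overlapped throughout. The log2 fold change of Col1a1 was -0.66 ± 0.68 (SE), adjusted p = 0.664 in limma, that of Col1a2 -0.71 ± 0.49 (SE), adjusted p = 0.486 in limma, and that of Col3a1 -0.53 ± 0.56 (SE), adjusted p = 0.668 in limma. Markers of pericytes and smooth muscle lay the same way, with 11 of 12 tested below 0 (median -0.42) and a summed level of 5142 to 26196 normalized counts in H3.3WT and 4699 to 19130 in H3.3K27M. Fibroblast and meninges markers were below 0 in 6 of 8 (median -0.65), with sums of 577 to 3154 and 360.4 to 2257. No marker of either list was at 0 in every library. With the pericyte and smooth muscle score as a covariate the log2 fold change of Col1a1 was 0.20, turned in sign, and that of Col1a2 -0.45 and of Col3a1 -0.03. The part of fibroblasts was not tested.

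Col2a1 (chr15:97975602-98004695, minus strand), the main fibrillar collagen of cartilage, had the highest within-group SD of log2 values of the tested collagen genes and is described for that reason, chosen after its values were seen. It lay between 54.0 and 7152 normalized counts with a median of 318 in H3.3WT and between 165 and 10793 with a median of 1101 in H3.3K27M. Libraries 1, 14, 15 and 16 held 7152, 8061, 8032 and 10793, while library 8 held 54.0 and library 5 107. Its log2 fold change was the highest of the family and also among the least certain, at 1.55 ± 1.08 (SE), adjusted p = 0.492 in limma. Of the 8 cartilage and bone markers listed, 7 were matched by symbol, and none of these was at 0 in every library. Acan, a proteoglycan gene also expressed by glial progenitors, ranged from 656 to 20615 over the 16 libraries. Matn1 reached 243 in library 2 and Comp 81.1, and Sp7, Matn3, Bglap and Ibsp stayed below the highest value of Comp.

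The remaining fibrillar members had estimates nearer to 0. Col5a3 (0.29 ± 0.25 (SE)), Col5a1 (-0.04 ± 0.31 (SE)) and Col5a2 (-0.39 ± 0.42 (SE)), chains of the minor fibrillar type V, and Col24a1 (0.04 ± 0.58 (SE)) had adjusted limma p-values between 0.586 and 0.979. Col5a3 was also the least variable of all tested collagen genes, as given further on.

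Of the 6 type IV genes, 2 had a log2 fold change above 0 and 4 below 0 (median -0.06), and 0 passed; between 0 and 5 of the 6 were above 0 over the alternatives. Col4a1 (chr8:11198423-11312826, minus strand) ranged from 4654 to 27611 normalized counts in the 9 H3.3WT tumours (median 20133) and from 9542 to 21616 in the 7 H3.3K27M tumours (median 17201). The lowest library was number 9 and the highest number 4, both H3.3WT, and the H3.3K27M values lay inside that span. The estimate for Col4a1 was -0.11 ± 0.31 (SE), adjusted p = 0.893 in limma. Col4a2 (chr8:11312805-11449287, plus strand) had a median of 11758 normalized counts (range 2527 to 17624) in H3.3WT and of 9599.7 (range 5307 to 12754) in H3.3K27M tumours, with library 9 again lowest and a log2 fold change of -0.08 ± 0.33 (SE), adjusted p = 0.932 in limma. Endothelial markers were below 0 in 11 of 13 (median -0.50), with sums of 7444 to 33292 in H3.3WT and 6506 to 19494 in H3.3K27M, and none was at 0 in every library. With the endothelial score as a covariate the log2 fold changes turned to 0.22 for Col4a1 and 0.33 for Col4a2, and 0 collagen genes passed the adjusted threshold in that fit.

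The other type IV chains were far lower. Col4a3, which joins Col4a4 and Col4a5 in the kidney glomerulus, had a median of 50.3 normalized counts (range 31.6 to 376) in H3.3WT and of 108 (range 46.1 to 175) in H3.3K27M tumours. In 6 of 7 H3.3K27M tumours it lay above the H3.3WT median, yet library 2 of H3.3WT held the highest value of all, and the log2 fold change was 0.35 ± 0.47 (SE), adjusted p = 0.748 in limma. Col4a4 had -0.12 ± 0.48 (SE), Col4a5 0.33 ± 0.53 (SE) and Col4a6 -0.05 ± 0.82 (SE) as log2 fold changes. Library 7 was highest of all 16 for both Col4a5 (1668) and Col4a6 (1009), which lie side by side on the X chromosome.

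Type VI collagen, which anchors cells to the interstitial matrix, was led by Col6a1 (chr10:76708792-76726168, minus strand). Col6a1 lay between 276 and 4776 normalized counts with a median of 1596 in H3.3WT and between 612 and 6251 with a median of 1230.2 in H3.3K27M. Library 9 was lowest in H3.3WT and library 11, of H3.3K27M, held the highest value of all, and the log2 fold change was 0.01 ± 0.60 (SE), adjusted p = 0.993 in limma. Col6a2 had -0.05 ± 0.55 (SE), adjusted p = 0.972 in limma. Col6a3, whose chain carries many von Willebrand factor A domains, had a median of 1223 normalized counts (range 352 to 2945) in H3.3WT and of 922 (range 357 to 1499.8) in H3.3K27M tumours. Both ranges began near 350, H3.3WT libraries reached higher, and the log2 fold change was -0.51 ± 0.39 (SE), adjusted p = 0.535 in limma. Of the 3 tested type VI genes, 1 had a log2 fold change above 0 and 2 below 0, and between 0 and 3 were above 0 over the alternatives.

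Col8a1, Col8a2 and Col10a1, the short chains of hexagonal networks (Col10a1 marks hypertrophic cartilage), all had log2 fold changes below 0 in limma, and 0 of 3 passed. Over the alternatives, between 0 and 1 of the 3 were above 0. Col8a1 had a median of 443 normalized counts (range 121 to 816) in H3.3WT and of 267 (range 119 to 466.4) in H3.3K27M tumours, with 6 of 7 H3.3K27M tumours below the H3.3WT median and a log2 fold change of -0.45 ± 0.41 (SE), adjusted p = 0.610 in limma. Col10a1 lay between 1.90 and 172 normalized counts with a median of 19.3 in H3.3WT and between 2.05 and 38.1 with a median of 9.16 in H3.3K27M. Its highest values were 172 in library 7 and 85.2 in library 8 among H3.3WT tumours, and 38.1 in library 10 among H3.3K27M tumours. The log2 fold change of Col10a1 was -1.02 ± 0.72 (SE), adjusted p = 0.498 in limma. Col8a2 was listed at 0 in library 10 and at 232 in library 13, with a log2 fold change of -0.34 ± 1.04 (SE), adjusted p = 0.898 in limma. With edgeR the log2 fold change of Col8a2 was 0.45 and with DESeq2 -1.63. Library 13 also held the highest sum of choroid plexus and ependyma markers (27571), and whether this bears on Col8a2 was not tested.

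FACIT chains were above 0 in 8 of 9 tested genes, and in 5 to 9 over the alternatives, 5 without libraries 6 and 8 (median 0.28), with 50.5% of all tested genes above 0, and 0 of 9 passed or reached an unadjusted p under 0.05. Col16a1 ranged from 11329.5 to 25496 normalized counts in the 9 H3.3WT tumours (median 13857) and from 9069.9 to 36178 in the 7 H3.3K27M tumours (median 14502). Library 10 held the highest and library 15 the lowest value, both H3.3K27M, and the log2 fold change was 0.06 ± 0.26 (SE), adjusted p = 0.924 in limma. Col9a3, a chain of type IX collagen found on the surface of cartilage fibrils, had a median of 4765 normalized counts (range 1776 to 13585) in H3.3WT and of 4318 (range 1794 to 14821) in H3.3K27M tumours. Each group held both low and high tumours, with 13585 in library 2 and 14697 in library 11 among the high ones, and the log2 fold change was 0.28 ± 0.49 (SE), adjusted p = 0.811 in limma. It was 0.040 without library 16 and 0.55 without library 15. Col12a1, a FACIT chain of tendon and ligament, had the smallest p of the class: it lay between 66.8 and 1242 normalized counts with a median of 703 in H3.3WT and between 232 and 2459 with a median of 898 in H3.3K27M, with a log2 fold change of 1.02 ± 0.63 (SE), adjusted p = 0.433 in limma. Its H3.3K27M values fell on both sides of the H3.3WT median, 4 above and 3 below.

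Col20a1 was the 1 FACIT gene below 0, at -0.30 ± 0.62 (SE), adjusted p = 0.844 in limma. Col9a1 (0.38 ± 0.66 (SE)), Col9a2 (0.20 ± 0.30 (SE)), Col14a1 (0.07 ± 0.54 (SE)), Col19a1 (0.95 ± 1.00 (SE)) and Col22a1 (0.41 ± 0.50 (SE)) completed the class. Col19a1 depended on the test: limma gave an unadjusted p of 0.353, edgeR 0.0375 and DESeq2 0.0275. Its levels in H3.3K27M tumours ran from 4.33 in library 10 and 12.1 in library 16 to 1119 in library 13, so the spread within the group exceeded the difference between medians.

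Both multiplexins, basement membrane collagens whose ends yield endostatin-like fragments, had log2 fold changes below 0, and 0 of 2 passed. Col18a1 (chr10:77052178-77166548, minus strand) ranged from 2269 to 14935 normalized counts in the 9 H3.3WT tumours (median 4859) and from 2706 to 5555 in the 7 H3.3K27M tumours (median 4933). The medians were nearly equal, and the difference lay in H3.3WT libraries above the H3.3K27M maximum, up to 14935 in library 1. As log2 fold change, Col18a1 had -0.48 ± 0.34 (SE), adjusted p = 0.499 in limma, and Col15a1 had -0.48 ± 0.38 (SE), adjusted p = 0.550 in limma.

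Transmembrane collagens, which are anchored in the plasma membrane, were low. Col13a1 (chr10:61838236-61979108, minus strand) ranged from 5.10 to 300.3 normalized counts in the 9 H3.3WT tumours (median 35.7) and from 6.36 to 48.5 in the 7 H3.3K27M tumours (median 22.5). In 6 of 7 H3.3K27M tumours Col13a1 lay below the H3.3WT median, and the H3.3WT group itself reached down to 5.10 in library 7. Its log2 fold change was -1.26 ± 0.79 (SE), adjusted p = 0.445 in limma, the lowest of the family, while DESeq2 gave -2.23 with an adjusted p of 0.0827. Col25a1, whose shed fragment was found in amyloid plaques, held 1293 in library 6 and at most 70.6 in any other H3.3WT library. With that library included, its log2 fold change was -1.17 ± 0.95 (SE), adjusted p = 0.559 in limma, and without it -0.48. Library 6 also held the highest summed neuron (48032), astrocyte (139193) and blood (455951) markers of the 16 libraries. Whether this bears on Col25a1 was not tested. Col23a1 had 0.07 ± 0.58 (SE), adjusted p = 0.962 in limma.

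Col7a1 forms the anchoring fibrils of skin. It had a median of 613 normalized counts (range 113 to 1739) in H3.3WT and of 521 (range 237 to 811) in H3.3K27M tumours, with a log2 fold change of 0.11 ± 0.45 (SE), adjusted p = 0.929 in limma. Col28a1, a collagen known from peripheral nerve, had a median of 25.8 normalized counts (range 7.59 to 37.2) in H3.3WT and of 32.1 (range 10.5 to 97.6) in H3.3K27M tumours, with 5 of 7 H3.3K27M tumours above the H3.3WT median and a log2 fold change of 0.71 ± 0.46 (SE), adjusted p = 0.456 in limma. Col26a1 had -0.92 ± 0.80 (SE), adjusted p = 0.592 in limma. Its log2 fold change was -0.27 without library 16, -1.35 without library 13 and -0.20 with edgeR.

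Collagen genes differed between tumours of the same group more than most genes did. The within-group SD of log2(normalized count + 1) had a median of 1.11 over the 40 tested collagen genes and of 0.467 over all tested genes, and 40 of 40 collagen genes exceeded the latter. It ran from 0.536 for Col5a3 to 2.45 for Col2a1. No p is given for this contrast, since genes are not replicates.

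Partner or neighbouring chains moved together in part. Not all of these pairs are built into the same molecule. Col1a1 and Col3a1 share fibrils, Col3a1 and Col5a2 are neighbouring genes, and Col15a1 and Col18a1 are both multiplexins. Across the 16 libraries, 14 pairs of partner or neighbouring chains were correlated on log2(normalized count + 1), and 8 had an adjusted permutation p under 0.05, all with r above 0. The 8 had r of 0.73 or more, as did 2.35% of the 766 other pairs of tested collagen genes. The median r was 0.74 over the partner pairs and 0.07 over the other pairs. The tightest was Col4a1 with Col4a2 (Pearson r = 0.977, permutation p = 1e-05, adjusted p = 3.5e-05, Spearman rho = 0.976, permutation p = 1e-05). The smallest p that 100000 permutations can give is 1e-05. Without libraries 9 and 12, the farthest from the median of Col4a1, r was 0.961, and within H3.3WT and H3.3K27M it was 0.981 and 0.966. Col6a1 and Col6a2, neighbours on chromosome 10, came next (Pearson r = 0.961, permutation p = 1e-05, adjusted p = 3.5e-05, Spearman rho = 0.935, permutation p = 1e-05). For this pair r was 0.971 within H3.3WT, 0.949 within H3.3K27M and 0.944 without libraries 9 and 11.

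Col1a1 moved with Col3a1, its neighbour in mixed fibrils (Pearson r = 0.946, permutation p = 1e-05, adjusted p = 3.5e-05, Spearman rho = 0.929, permutation p = 1e-05; r = 0.9334 without libraries 6 and 8, 0.941 within H3.3WT and 0.956 within H3.3K27M). With Col1a2, the second chain of type I collagen, the relation was looser (Pearson r = 0.809, permutation p = 0.000230, adjusted p = 0.000644, Spearman rho = 0.759, permutation p = 0.00112; r = 0.8003 without libraries 6 and 8, 0.830 within H3.3WT and 0.762 within H3.3K27M). Col4a5 moved with Col4a6, whose start lies 1309 bp away (Pearson r = 0.904, permutation p = 1e-05, adjusted p = 3.5e-05, Spearman rho = 0.806, permutation p = 0.000210; r = 0.8438 without libraries 3 and 7, 0.945 within H3.3WT and 0.896 within H3.3K27M). Col3a1 and Col5a2, neighbouring genes, were also related (Pearson r = 0.788, permutation p = 0.000280, adjusted p = 0.000653, Spearman rho = 0.762, permutation p = 0.000860; r = 0.7065 without libraries 5 and 7, 0.815 within H3.3WT and 0.599 within H3.3K27M).

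For 2 of the 8 relations, the adjusted p was over 0.05 without the 2 libraries farthest from the median. Col4a3 and Col4a4, with starts 72 bp apart, had Pearson r = 0.730, permutation p = 0.00160, adjusted p = 0.00280, Spearman rho = 0.547, permutation p = 0.0295; r was 0.511 without libraries 1 and 2 and 0.358 within H3.3K27M, against 0.845 within H3.3WT. Col9a1 and Col9a2 had Pearson r = 0.759, permutation p = 0.000640, adjusted p = 0.00128, Spearman rho = 0.776, permutation p = 0.000490, and r was 0.572 without libraries 1 and 14, 0.811 within H3.3WT and 0.693 within H3.3K27M. Other partners showed no relation past the threshold. Pearson r was 0.397 for Col11a1 with Col11a2, 0.451 for Col6a2 with Col6a3, 0.434 for Col9a2 with Col9a3, 0.290 for Col5a1 with Col5a2, 0.084 for Col8a1 with Col8a2 and 0.050 for Col15a1 with Col18a1, with adjusted permutation p-values from 0.125 to 0.854. Within groups, 8 of 14 pairs had an adjusted exact p under 0.05 in H3.3WT and 4 of 14 in H3.3K27M.

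**Figure D4:**
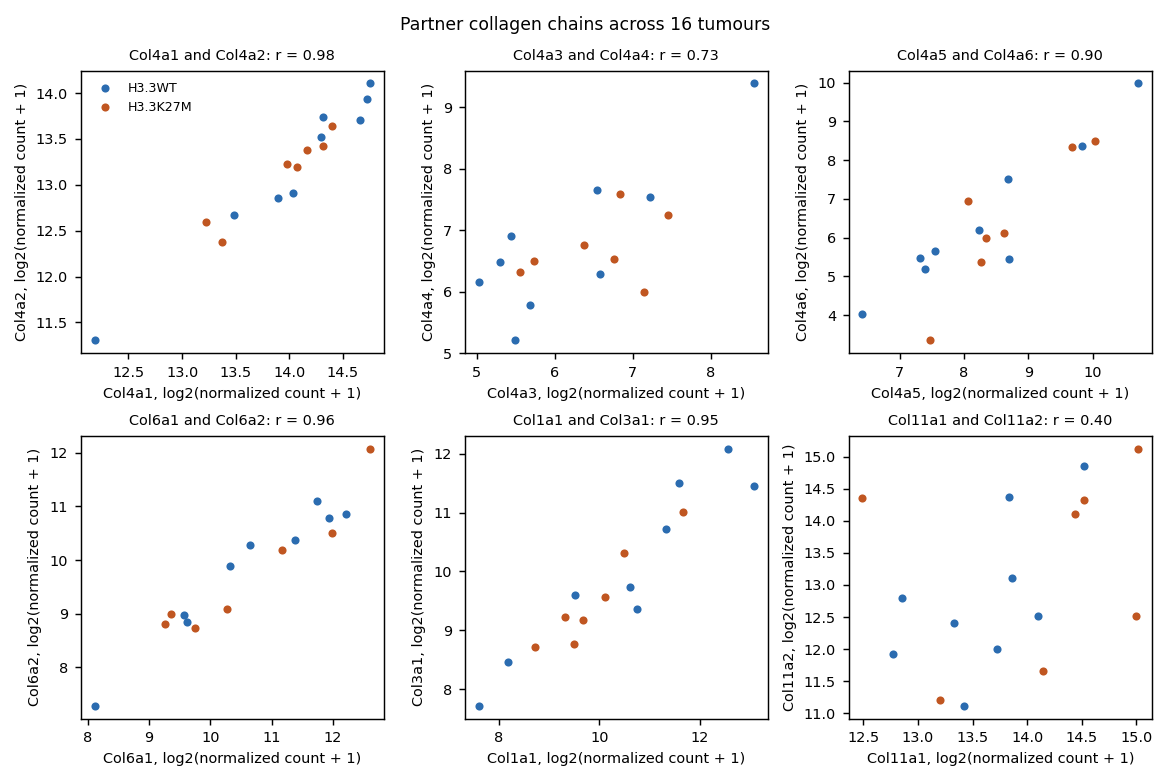
Log2(normalized count + 1) of both chains of 6 pairs, 1 point per tumour, H3.3WT blue and H3.3K27M orange, with Pearson r over 16 libraries. The Col4a1 and Col4a2 points lie near a line (r = 0.98), and the Col11a1 and Col11a2 points are scattered (r = 0.40).

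The ratio of partner chains per kb of exon did not separate the groups. In 14 two-sided exact permutation tests of the log2 ratio, 0 passed and every adjusted p was 1. The Col4a1 to Col4a2 ratio was the steadiest, with a median of 1.55 (1.32 to 1.93) in H3.3WT and 1.53 (1.37 to 1.77) in H3.3K27M. The Col1a1 to Col1a2 ratio had medians of 3.59 and 3.60 but ran from 0.894 to 10.5 within H3.3WT. It also hung on the length used: per kb of the transcript with the longest coding sequence the medians were 1.71 and 1.72.

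Collagen genes were next set against scores of 5 cell types (the mean log2 value of each marker list), giving 200 relations over 16 libraries, of which 13 had an adjusted permutation p under 0.05. An absolute r of 0.688, the smallest among the 13, was reached by 7% of the 200 relations and by 2.81% of the same relations over all tested genes, those of each marker list left out. For the endothelial score it was reached by 15% of collagen genes and 3.26% of all, and for the pericyte and smooth muscle score by 12.5% and 4.45%. The shares were 5% and 2.43% for the astrocyte score and 2.5% and 2.84% for the oligodendrocyte progenitor score. For the fibroblast and meninges score they were 0% and 1.05%. Pericyte and smooth muscle markers moved with Col6a3 (Pearson r = 0.849, permutation p = 6e-05, adjusted p = 0.00800, Spearman rho = 0.882, permutation p = 1e-05), Col5a2 (r = 0.823), Col4a2 (r = 0.746), Col1a1 (r = 0.696) and Col4a1 (r = 0.688). Endothelial markers moved with Col5a2 (r = 0.804), Col6a3 (r = 0.756), Col7a1 (r = 0.722) and Col4a2 (r = 0.690), and against Col11a1 (Pearson r = -0.794, permutation p = 0.000330, adjusted p = 0.0165, Spearman rho = -0.776, permutation p = 0.000680). Astrocyte markers moved with Col23a1 (r = 0.753) and against Col1a1 (r = -0.701), and oligodendrocyte progenitor markers with Col4a3 (r = 0.735). Fibroblast and meninges markers had 0 relations past the threshold.

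These relations did not pass the threshold in smaller sets of libraries. Whether the number of libraries or the particular libraries left out mattered was not tested. Without the 2 libraries farthest from the median score, 0 of 200 passed the adjusted threshold, and 0 passed within either group. The sizes of r changed less in most cases: Col6a3 with the pericyte and smooth muscle score had r = 0.745 without libraries 8 and 15, 0.804 within H3.3WT and 0.910 within H3.3K27M. Col11a1 with the endothelial score had -0.707 without libraries 4 and 8, -0.886 within H3.3WT and -0.734 within H3.3K27M. Within H3.3K27M, r was nearest to 0 for Col1a1 (-0.013) and Col23a1 (0.197) with the astrocyte score and for Col4a2 with the endothelial score (0.422), and the other 10 had an absolute r of 0.623 or more. For Col1a1 and Col23a1 with the astrocyte score, r was -0.420 and 0.521 without libraries 6 and 8.

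**Figure D5:**
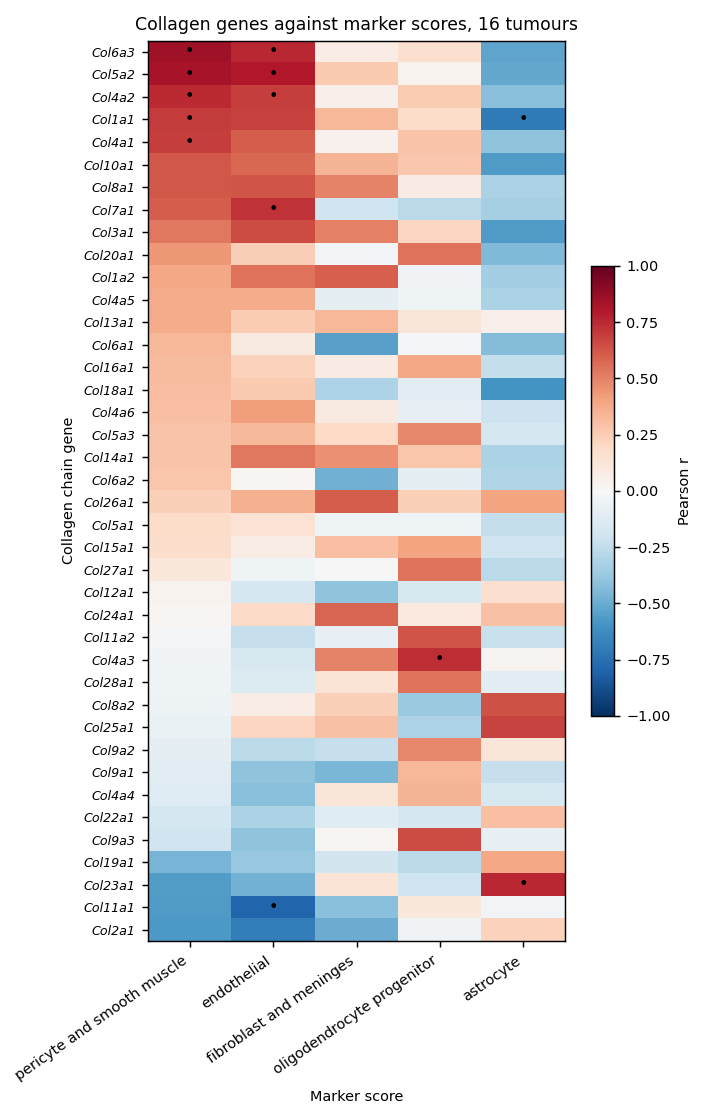
Pearson r between the log2 level of each tested collagen gene and 5 marker scores over 16 libraries, red above 0 and blue below 0, with a dot where the adjusted permutation p was under 0.05. The 13 dots lie mainly in the pericyte and endothelial columns, on Col6a3, Col5a2, Col4a2, Col4a1 and Col1a1.

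Over all tested genes, those most like 3 collagen genes were sought by Pearson r over 16 libraries, as a description. Most like Col1a1 were Col3a1 (0.946), Gdf3 (0.883), Actg2, a smooth muscle actin (0.874), Col10a1 (0.874) and Nrros (0.873). Most like Col4a1 were Col4a2 (0.977), Abcc9, a pericyte potassium channel subunit (0.879), the Notch ligand gene Dll4 (0.875), the basement membrane gene Nid2 (0.875) and the laminin gene Lamb1 (0.874). Most like Col16a1 were Unc93b1 (0.826), Bcas1os2 (0.815), Ermard (0.777), Acot2 (0.752) and Tshz3 (0.749).

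Genes that make, process, bind or break down collagen had 0 past limma's adjusted threshold in each of 6 lists, beside 0% of all 15007 tested genes. At an unadjusted limma p under 0.05, 1 of 12 breakdown genes was higher and 3 were lower. For processing and cross-linking it was 1 and 2 of 12, and for hydroxylation, folding and secretion 1 and 1 of 20. Receptors, basement membrane partners and fibril partners had 0. Of all tested genes, 8.7% were higher and 6.61% lower at that p. Among 20 tested genes of hydroxylation, folding and secretion, 6 had log2 fold changes above 0 and 14 below 0 (median -0.15). Colgalt2, which adds galactose to hydroxylysine, had 0.77 ± 0.34 (SE), adjusted p = 0.303 in limma, the collagen chaperone gene Fkbp10 -0.61 ± 0.28 (SE), adjusted p = 0.307 in limma and the prolyl 3-hydroxylase gene P3h1 -0.33 ± 0.22 (SE), adjusted p = 0.468 in limma.

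Procollagen processing and cross-linking held 5 genes above and 7 below 0 of 12 tested (median -0.21). Adamts3, a procollagen N-proteinase, ranged from 68.2 to 465 normalized counts in the 9 H3.3WT tumours (median 289) and from 331 to 1049 in the 7 H3.3K27M tumours (median 607). All 7 H3.3K27M tumours lay above the H3.3WT median, though the ranges overlapped. Its log2 fold change was 1.40 ± 0.38 (SE), adjusted p = 0.257 in limma. The adjusted p in DESeq2 was 0.0410, the only one of the named genes to pass the threshold in any test run here. DESeq2 called 0.78% of the 13843 genes with an adjusted p, and Adamts3 was named for its small limma p in these data. Adamts2, a related N-proteinase, went the other way at -0.84 ± 0.34 (SE), adjusted p = 0.272 in limma, as did the cross-linking oxidase gene Loxl1 at -0.97 ± 0.37 (SE), adjusted p = 0.266 in limma; all 7 H3.3K27M tumours lay below the H3.3WT median for both.

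Breakdown enzymes and inhibitors had 5 above and 7 below 0 of 12 tested (median -0.22). The collagenase gene Mmp13 had a median of 171 normalized counts (range 50.9 to 887) in H3.3WT and of 67.1 (range 3.18 to 159) in H3.3K27M tumours, and its log2 fold change was -1.97 ± 0.70 (SE), adjusted p = 0.261 in limma. For Timp1, an inhibitor of matrix metalloproteinases, it was -1.79 ± 0.73 (SE), adjusted p = 0.274 in limma, and for Ctsk, the collagen-cleaving cathepsin K, -1.01 ± 0.41 (SE), adjusted p = 0.277 in limma. All 7 H3.3K27M tumours were below the H3.3WT median for Mmp13 and 6 of 7 for Timp1 and Ctsk, and the groups overlapped for each.

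Collagen receptors had 5 above and 5 below 0 of 10 tested (median -0.00). Ddr2 and Ddr1, receptor tyrosine kinases for collagen, had 0.56 ± 0.27 (SE), adjusted p = 0.336 in limma, and 0.15 ± 0.13 (SE), adjusted p = 0.612 in limma, and the inhibitory receptor gene Lair1 had 0.20 ± 0.19 (SE), adjusted p = 0.636 in limma. Basement membrane partners had 8 above and 8 below 0 of 16 (median 0.01), where Lamb2 had -0.38 ± 0.28 (SE), adjusted p = 0.515 in limma, Lamc1 0.32 ± 0.24 (SE), adjusted p = 0.522 in limma and Sparc, for a collagen-binding glycoprotein, -0.33 ± 0.27 (SE), adjusted p = 0.558 in limma. Fibril partners had 4 above and 8 below 0 of 12 (median -0.18), where the proteoglycan gene Dcn had -1.63 ± 0.96 (SE), adjusted p = 0.413 in limma, Postn -0.89 ± 0.53 (SE), adjusted p = 0.418 in limma and Lum 0.79 ± 0.54 (SE), adjusted p = 0.480 in limma.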

How the data were processed

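RNA of 16 mouse tumours was extracted with a Qiagen RNeasy kit and, per the labels' protocols, sequenced in single reads of 50 bp from TruSeq mRNA libraries. STAR 2.7, HTSeq, DESeq2 and mm10 are named in the submitters' processing notes; their settings and the strandedness were not stated there. Each deposited library column holds a signal value per gene, called normalized counts here. How the authors made it is not given in the sources used here, but in each library 100% of the values were whole multiples of 1 unit within 0.01 reads, so reads could be recovered. Per the file headers, the comparison of the authors is given as log2 fold change, Wald score and p-value, raw and adjusted. For each repeated Ensembl ID 1 line was kept, which left 23355 genes, 23340 of them in GENCODE M21.

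The planned test for counts was not the main one, because the deposited values are normalized. Instead limma 3.58.1 (R 4.3.3) was run on log2(value + 1) for the 15007 genes that had 10 or more normalized counts in 7 or more libraries. Adjustment was by Benjamini-Hochberg over all of them, at a threshold of 0.05. Log2 fold changes are H3.3K27M minus H3.3WT on that scale, so changes of low genes are understated. edgeR 4.0.16 and DESeq2 1.42.0 were run on the recovered reads. Levels were divided by exon length from GENCODE M21, and correlations were tested with 100000 permutations, or exactly within groups. The p-values measure the spread between these libraries. Limits from counts of 0 cover counting error only. Exons of collagen genes overlap those of other genes by at most 6.07% of exon length (Col9a3).

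Members, structural classes, pathway and marker lists were chosen with earlier results of these data known. Named genes were, per class, the 2 highest per kb and the smallest p, the 6 smallest p of the family, the 3 smallest p of each pathway list, the 5 genes most like Col1a1, Col4a1 and Col16a1, and the untested members; other members are named as part of the family. The fit was tested on simulated data. Alternatives were other scalings, pseudocounts of 0.5 and 5, other filters, each library left out, libraries 6 and 8 left out, length or GC trends removed, and marker scores as covariates. The cartilage marker Cnmd was not analysed here.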

Additional observations from a re-analysis of the deposited data

Results flagged for a closer look

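In some genes 1 tumour stood far from the rest of its group by Dixon's test of the gap to the nearest other library. Of 88 groups (44 collagen genes in either group), 20 met this, and over all 124 groups with the 18 named pathway genes 24 did. About 1 in 20 is the chance share for normally distributed values only, so the shares over all tested genes are given beside. The test ran on normalized counts, where 21.2% of the 80 groups of tested collagen genes met it, beside 13.6% of the 29996 groups of all tested genes. On log2(value + 1), a setting added after the data were seen, 2.5% of the collagen groups and 7.51% of all did. Values are normalized counts, each followed by the nearest other library of the group.

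Single H3.3WT libraries stood high for several collagen genes. Library 2 was highest for Col27a1 (2691, nearest other 1456), Col4a4 (669, nearest other 199), Col4a3 (376, nearest other 149), Col6a4 (47.7, nearest other 22.7). Library 1 stood apart for Col9a1 (6813, nearest other 1175), Col2a1 (7152, nearest other 2704). Library 4 stood apart for Col17a1 (27.03, nearest other 10.4), Col6a6 (29.6, nearest other 8.54), library 6 for Col23a1 (368, nearest other 135), Col25a1 (1293, nearest other 70.6) and library 7 for Col4a6 (1009, nearest other 329.6), Col10a1 (172, nearest other 85.2). Library 8 was high for Col7a1 (1739, nearest other 769.6) and library 9 for Col19a1 (462, nearest other 153).

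Among H3.3K27M tumours, library 10 stood apart for Col1a1 (3249, nearest other 1448), Col10a1 (38.1, nearest other 12.5), library 14 for Col9a2 (3501, nearest other 1984), Col12a1 (2459, nearest other 1128), library 11 for Col6a2 (4303, nearest other 1449.8) and library 13 for Col8a2 (232, nearest other 20.5).

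Genes of collagen breakdown showed the same in H3.3WT library 8 for Mmp13 (887, nearest other 456), Timp1 (2983, nearest other 1525). In H3.3K27M it was library 12 for Timp1 (1924, nearest other 723) and library 10 for Ctsk (319, nearest other 149.6).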

How the results depend on the processing

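The count of 0 collagen genes past the adjusted threshold held in all 29 alternatives. The median log2 fold change of the tested collagen genes lay between -0.16 (length trend removed) and 0.20 (pericyte and smooth muscle score as covariate). The count at an unadjusted p under 0.05, 1 as reported, was 5 with edgeR, 6 with DESeq2, 2 without a filter on low values (Col6a6 added), 2 with the endothelial score as a covariate (Col7a1 added) and 0 with the length trend removed. With each library left out it ranged from 1 to 3. It was 3 without library 6 (Col18a1 and Col10a1 added) or library 16 (Col5a3 and Col28a1 added) and 2 without library 7 (Col13a1), library 9 (Col6a3) or library 10 (Col11a1). In the limma fit as reported, 8.7% of all tested genes were higher and 6.61% lower at that p. The shares of all genes in the left-out, covariate, filter and length fits were not computed, so these counts cannot be read as gains. Of 14 partner pairs, 8 passed as reported and 4 within H3.3K27M. The 13 relations with marker scores were 0 without the 2 farthest libraries, 0 within H3.3WT and 0 within H3.3K27M; these settings have fewer libraries.

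Of 40 collagen genes, 18 kept the sign of their log2 fold change in all 29 alternatives and 22 did not, none of them past the adjusted threshold under any setting. The 18 named pathway genes kept theirs. The values with a changed sign were 0.062 (Col20a1), 0.13 (Col6a2), -0.000548 (Col4a5), -0.18 (Col7a1), -0.20 (Col23a1), -0.0052 (Col4a3), 0.45 (Col8a2) and -0.049 (Col14a1) with edgeR, and 0.066 (Col20a1), 0.12 (Col6a2), -0.000311 (Col4a5), -0.18 (Col7a1), -0.21 (Col23a1), -0.0042 (Col4a3) and -0.043 (Col14a1) with DESeq2. The pericyte and smooth muscle covariate gave 0.30 (Col4a1), 0.40 (Col4a2), 0.19 (Col20a1), 0.20 (Col1a1), 0.063 (Col5a1), 0.25 (Col6a2), 0.082 (Col6a3), 0.24 (Col5a2), 0.43 (Col4a6) and -0.54 (Col23a1), and the endothelial covariate gave 0.22 (Col4a1), -0.039 (Col9a3), 0.33 (Col4a2), 0.12 (Col1a1), -0.058 (Col9a1), 0.032 (Col5a1), 0.069 (Col3a1), 0.18 (Col5a2), 0.57 (Col4a6) and -0.40 (Col23a1). Removing the length trend gave -0.064 (Col16a1), -0.13 (Col7a1), -0.012 (Col23a1), -0.12 (Col24a1) and -0.068 (Col14a1), removing the GC trend 0.067 (Col4a2), 0.056 (Col5a1) and 0.011 (Col6a2), and upper quartile scaling -0.000989 (Col6a1). Leaving out libraries 6 and 8 gave -0.016 (Col16a1), -0.029 (Col9a1), 0.040 (Col6a2), 0.38 (Col4a6), -0.073 (Col24a1), 0.25 (Col8a2) and -0.13 (Col14a1). With 1 library left out, 35 of the 40 estimates moved by over 1.5 times or changed sign for at least 1 library, and the ranges that crossed 0 were -0.20 to 0.18 (Col5a1), -0.43 to 0.12 (Col6a2), -0.21 to 0.56 (Col24a1), -0.15 to 0.35 (Col7a1), -0.32 to 0.20 (Col4a4), -0.17 to 0.41 (Col14a1), -0.31 to 0.049 (Col4a2), -0.32 to 0.24 (Col6a1), -0.41 to 0.45 (Col4a6), -1.08 to 0.23 (Col8a2), -0.19 to 0.38 (Col23a1), -0.13 to 0.20 (Col16a1), -0.34 to 0.011 (Col4a1), -0.63 to 0.095 (Col20a1), -0.0044 to 0.76 (Col9a1). The cause of these changes was not tested.

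No paired analysis was possible because the columns carry no replicate number of the labels. Library 8, the shallowest, limits what can be read of low genes such as Col17a1 and Col6a5.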
